A study of Mus musculus with 27 samples.

Results

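The 8 genes described here carry iron into, out of and inside intestinal cells. They are grouped by role: Cybrd1, Slc11a2, Slc46a1 and Tfrc for uptake, Slc40a1 and Heph for export, and Fth1 and Ftl1 for storage. All 8 were among the 52550 genes of the deposited count table, and all 8 passed the filter on low counts in every comparison. In GENCODE M21 they lie on chromosomes 2 (Cybrd1), 15 (Slc11a2), 11 (Slc46a1), 16 (Tfrc), 1 (Slc40a1), X (Heph), 19 (Fth1) and 7 (Ftl1). The libraries are poly-A RNA of ileum, cecum or colon tissue from male C57BL/6 mice, which were 6 weeks old at the start, rested for 7 days and were then fed for 60 days. One diet was standard feed blended with arsenic to 30 µg per g, of which 72.7% was sodium arsenite, 19.0% sodium DMA (dimethylated arsenic), 7.3% sodium arsenate and 1.0% sodium MMA (monomethylated arsenic). The other diet was the same standard feed with no arsenic added, and both groups drank and ate freely. Each diet had 10 mice. The libraries used here number 5 arsenic and 4 control of ileum, 5 and 4 of cecum, and 4 and 5 of colon. The arsenic libraries carry the numbers 11 to 15 and the control libraries 1 to 5, and whether 1 number stands for 1 mouse across regions is not stated.

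Dietary iron that is not in heme is reduced at the brush border by Cybrd1 (duodenal cytochrome b) and enters the enterocyte through Slc11a2 (DMT1, the divalent metal transporter). Slc46a1 was first described as a heme carrier and is the proton-coupled folate transporter. Tfrc, the transferrin receptor, brings in transferrin-bound iron, which gut epithelium takes mainly from the blood side. Slc40a1 (ferroportin) is the exporter of iron from cells, and Heph (hephaestin) is the copper oxidase that works beside it. Fth1 and Ftl1, the heavy and light chains of ferritin, form the shell in which iron is stored. In low iron, iron regulatory proteins bind a hairpin called the iron-responsive element (IRE): in a 5′ UTR this blocks translation, and in the Tfrc 3′ UTR it protects the mRNA from decay. Much of this control acts on translation, which counts of mRNA do not measure.

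The IRE hairpins are shown because they set apart the members whose mRNA carries the known iron switch. They were found in GENCODE M21 transcripts by a pattern of a loop of 6 bases that begins with CAGTG, 5 paired bases on each side, an unpaired C below them and at least 3 of 4 pairs in the lower stem, with G-T pairs allowed. Each line gives 30 bases, 5′ to 3′, with the loop in capitals.
Tfrc 3′ UTR, element 1: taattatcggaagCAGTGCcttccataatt
Tfrc 3′ UTR, element 2: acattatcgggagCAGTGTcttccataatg
Tfrc 3′ UTR, element 3: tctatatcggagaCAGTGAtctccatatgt
Tfrc 3′ UTR, element 4: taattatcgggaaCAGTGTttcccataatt
Slc40a1 5′ UTR: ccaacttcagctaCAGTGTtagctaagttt
Fth1 5′ UTR: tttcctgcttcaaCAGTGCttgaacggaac
Ftl1 5′ UTR: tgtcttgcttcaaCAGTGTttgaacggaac
The Fth1 and Ftl1 elements share their upper stem (ttcaa and ttgaa) and the last bases of the hairpin. The Tfrc loops end in C, T, A and T. Of 21819 protein-coding genes searched, 7 (0.0321%) had a match in a 5′ UTR, among them Slc40a1, Fth1 and Ftl1, and 20 (0.0917%) had one in a 3′ UTR, among them Tfrc. The pattern had no match in Cybrd1, Slc46a1, Heph or Slc11a2. Some Slc11a2 transcripts are known to carry a 3′ UTR IRE with an added bulge, which this pattern does not cover. The counts are per gene and do not tell transcripts with and without an element apart, for Slc11a2 or for members with a match.

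Each library held 15717600 to 18208518 counts, and levels below are CPM, counts scaled to library size in the usual per-million way with TMM factors. Some libraries stood apart within their region. The bile acid carrier gene Fabp6, most active in the last stretch of the small intestine, held 6.13 and 1.33 CPM in ileum arsenic 14 and 15 and 218 to 4268 CPM in the other 7 ileum libraries. Hoxb13, a transcription factor gene of the distal colon, held 0 CPM in colon control 1 and 40.1 to 239 CPM in the other 8 colon libraries. For the member results that moved with these libraries, the values without them are given beside the main ones. Mt1 (metallothionein), a metal-responsive gene, was higher on arsenic feed both in ileum (102 to 244 CPM, against 34.7 to 43.2 CPM on control feed) and in cecum (58.0 to 80.2 CPM, against 19.1 to 22.6 CPM). In the colon it had 47.0 to 111 CPM on arsenic feed and 16.9 to 57.7 CPM on control feed, which overlapped, and was not called. The 57.7 CPM was in colon control 1, and the other colon control libraries had 16.9 to 28.4 CPM. Averaged over the 3 regions, Mt1 was higher on arsenic feed (log2 fold change 1.71, edgeR quasi-likelihood test, adjusted p = 4.35e-07). The summed level of 7 enterocyte markers was 12574 to 22278 CPM over all 27 libraries. Nothing in the labels says that libraries of a group come from separate mice, so the p-values measure the spread between libraries.

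The 8 genes together took 0.187 to 0.231% of counts in ileum arsenic libraries and 0.178 to 0.189% in ileum control libraries. In the cecum the share was 0.366 to 0.400% on arsenic feed and 0.363 to 0.418% on control feed, and in the colon it was 0.245 to 0.371% on arsenic feed and 0.207 to 0.426% on control feed. Fth1 alone made up 62.8 to 86.6% of these counts in any library. On the scale of mean CPM per kilobase of merged exons, Fth1 stood at 440.4, 982 and 575 in ileum, cecum and colon on arsenic feed and at 333, 1106 and 565 on control feed, above every other member in every group. Cybrd1 was the lowest on this scale in all 6 groups, at 0.513 to 1.18 CPM per kilobase. Merged exons join all annotated transcripts of a gene, so values per kilobase depend on transcripts that may not be made in the gut.

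**Figure D1:**
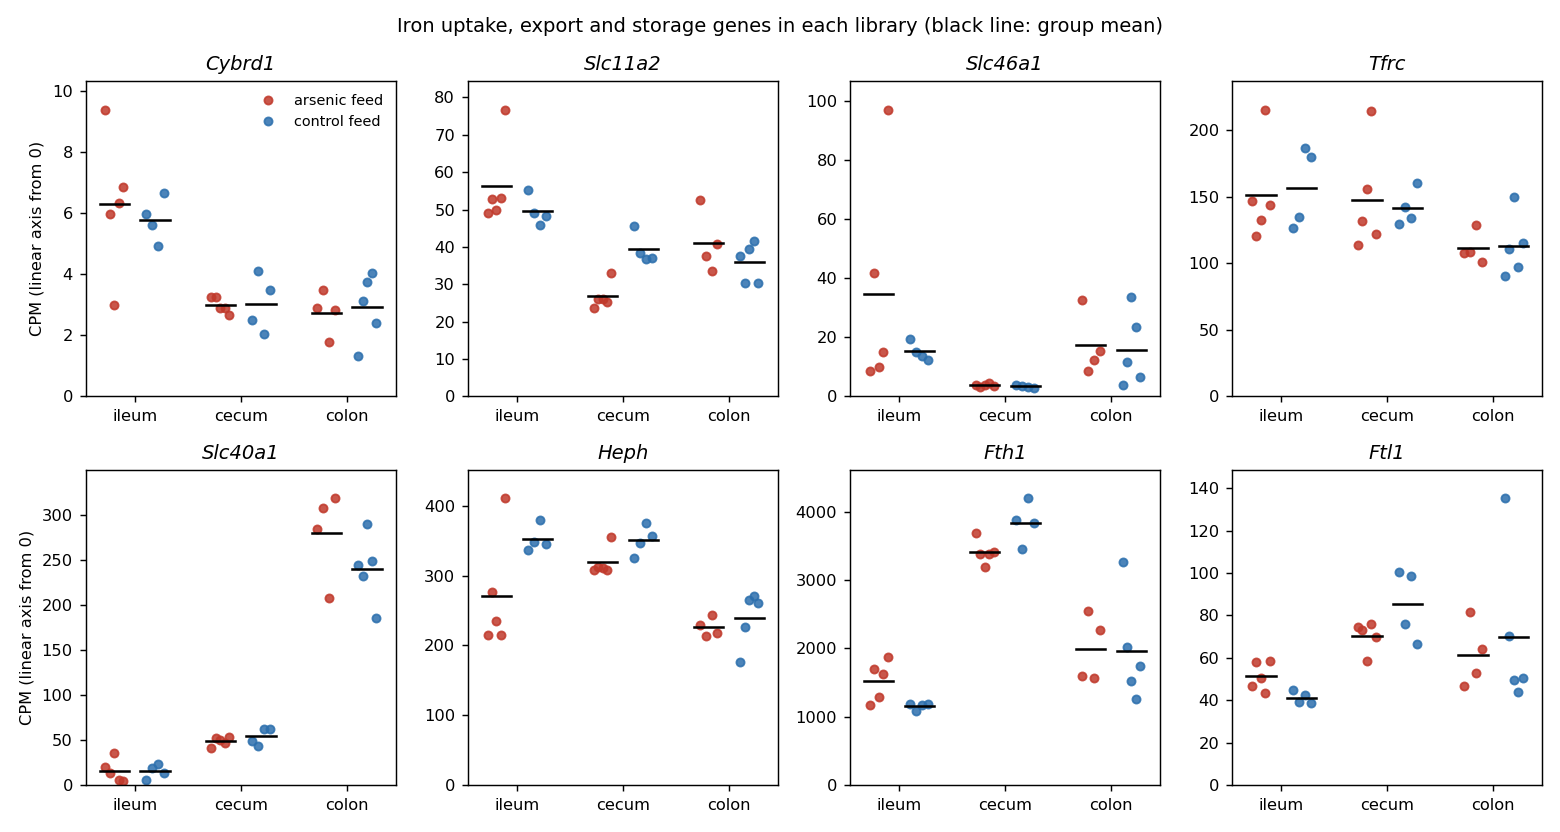
Each point is 1 library, the vertical axis is CPM on a linear scale from 0, and the black line is the group mean; arsenic libraries (red) stand left of control libraries (blue) in each region. Slc11a2 in the cecum is at 23.6 to 32.9 CPM on arsenic feed and at 36.8 to 45.5 CPM on control feed, and Slc40a1 is highest in the colon on both feeds.

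The first question was what arsenic feed did to these genes within each region. One member of 8 changed in 1 region: Slc11a2 was lower on arsenic feed in the cecum. No member was called in the ileum, where 7.3% of all 16305 genes tested were called (edgeR quasi-likelihood test, Benjamini-Hochberg adjusted p under 0.05). There 3 members (Heph, Fth1 and Ftl1) had an unadjusted p under 0.05. That threshold is looser than the one behind the 7.3%, which is therefore no background for this count. In the cecum 1 of 8 was called, against 25.2% of 15590 genes tested. In the colon 0 of 8 members were called, none at an unadjusted p under 0.05 either, and 0.649% of 16492 genes tested were called. The median log2 fold change of the members was 0.11 for ileum, -0.11 for cecum and 0.01 for colon, beside -0.00, 0.02 and -0.01 over all genes tested.

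**Figure D2:**
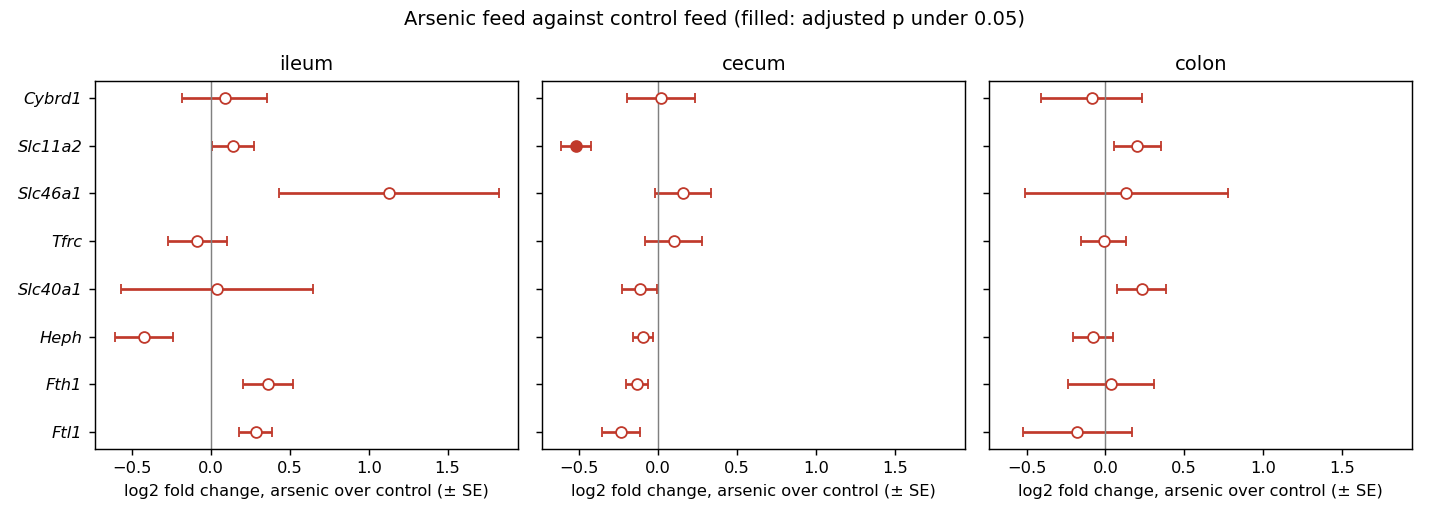
Points give the log2 fold change of arsenic over control feed for each gene in each region, and bars give its standard error; filled points have an adjusted p under 0.05. Only Slc11a2 in the cecum, at -0.52, is filled.

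Slc11a2, the importer of ferrous iron and other divalent metals, had 23.6, 26.1, 26.2, 25.2 and 32.9 CPM in cecum arsenic libraries 11 to 15, against 45.5, 38.3, 36.8 and 37.1 CPM in cecum control libraries 1, 2, 4 and 5. Every arsenic library lay below every control library. The mean was 26.8 ± 3.59 CPM on arsenic feed (SD, n = 5) and 39.4 ± 4.11 CPM on control feed (SD, n = 4), a log2 fold change of -0.52 ± 0.10 (SE, adjusted p = 0.00135), or 0.697 times the control level. In a bulk library, fewer cells that hold an mRNA and less of it per cell cannot be told apart. Markers also moved in the same libraries, where 25.2% of all genes tested were called, and the counts of marker lists are read against that share. The large intestine markers Aqp8 (-0.61), Car4 (-0.72) and Slc26a3 (-0.21) were lower on arsenic feed on the log2 scale. Of 7 enterocyte markers 2 were lower (Cdh1 and Krt20), with a list sum of 17041 to 20354 CPM on arsenic feed and 20061 to 22278 CPM on control feed. Goblet cell markers were lower (4 of 5, with sums of 5768 to 6899 CPM on arsenic feed and 7799 to 9171 CPM on control feed), and 2 of 6 smooth muscle markers were higher (2781 to 4668 CPM on arsenic feed and 2405 to 3339 CPM on control feed). Of 9 macrophage markers tested 1 was higher and 1 lower (list sums of 298 to 359 CPM on arsenic feed and 235 to 297 CPM on control feed), and 1 of 4 endothelial markers was higher (52.5 to 67.3 CPM and 42.5 to 51.5 CPM). Of 7 stress and metal response genes tested, Mt1 was higher and 2 were lower (sums of 1046 to 1138 CPM on arsenic feed and 1295 to 1365 CPM on control feed). Among lymphocyte markers 1 of 8 was higher, among fibroblast markers 1 of 5, and among plasma cell markers 1 of 5 was higher and 1 lower, with list sums that overlapped between feeds. The part of these markers in the Slc11a2 difference was not tested.

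In the ileum Slc11a2 had 49.0, 52.7, 49.9, 53.1 and 76.7 CPM in arsenic libraries 11 to 15, against 55.1, 49.2, 45.9 and 48.4 CPM in control libraries. The groups overlapped, with arsenic 15 above all others (log2 fold change 0.14 ± 0.13, adjusted p = 0.562, and 0.02 without arsenic 14 and 15). In the colon it had 52.5, 37.5, 33.6 and 40.7 CPM in arsenic libraries 11, 12, 13 and 15, against 37.6, 30.4, 39.4, 41.7 and 30.2 CPM in control libraries 1 to 5. Here too the groups overlapped (log2 fold change 0.20 ± 0.15, adjusted p = 0.60).

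Whether the arsenic effect on Slc11a2 differed between regions was tested directly. The effect in the cecum minus that in the ileum was -0.74 ± 0.20 on the log2 scale (adjusted p = 0.0154). It was the 1 member called of 8 in that comparison, in which 11.4% of 17763 genes were called. The effect in the colon minus that in the cecum was 0.75 ± 0.20, with an unadjusted p of 0.000698 and an adjusted p of 0.341. In that comparison 0% of 17763 genes were called by edgeR, although 1294 had an unadjusted p under 0.05, and DESeq2 called 30. The effect in the colon minus that in the ileum was 0.02 ± 0.19 (adjusted p = 0.984), and no member was called where 2.25% of 17763 genes were. Without ileum arsenic 14 and 15 the cecum minus ileum value was -0.58 (adjusted p = 0.0478).

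Cybrd1, the brush border reductase, was scarce, with 25 to 188 counts a library. On arsenic feed it averaged 6.32 ± 2.28 CPM for ileum (n = 5), 3.001 ± 0.258 for cecum (n = 5) and 2.74 ± 0.715 for colon (n = 4), against 5.79 ± 0.718 (n = 4), 3.04 ± 0.941 (n = 4) and 2.93 ± 1.09 CPM (n = 5) on control feed (SD). In the ileum the arsenic libraries held both the lowest value, 3.01 CPM in arsenic 13, and the highest, 9.40 CPM in arsenic 11. The log2 fold changes were 0.09 ± 0.27, 0.02 ± 0.21 and -0.09 ± 0.32 in ileum, cecum and colon (adjusted p = 0.884, 0.960 and 0.946).

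Slc46a1, the folate and heme carrier, varied widely between ileum libraries on arsenic feed. It had 8.70, 41.9, 9.97, 14.99 and 97.0 CPM in ileum arsenic libraries 11 to 15, against 19.4, 15.1, 13.7 and 12.3 CPM in ileum control libraries 1, 2, 3 and 5. Arsenic 12 and 15 lay above all control libraries and arsenic 11 and 13 below all of them. The log2 fold change of 1.13 ± 0.70 did not pass the test (adjusted p = 0.359). It was 0.30 without arsenic 15 (adjusted p = 0.740) and 0.40 without arsenic 14 and 15 (adjusted p = 0.713). In the cecum it had 3.02 to 4.39 CPM on arsenic feed and 2.85 to 3.90 CPM on control feed (log2 fold change 0.16 ± 0.18, adjusted p = 0.548). In the colon it had 32.7, 8.64, 12.4 and 15.2 CPM on arsenic feed, against 3.81, 11.7, 33.7, 23.3 and 6.34 CPM on control feed (log2 fold change 0.13 ± 0.64, adjusted p = 0.960). Without colon control 1 that value was -0.12 (adjusted p = 0.937).

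The libraries high in Slc46a1 were also high in genes that mark position along the gut. In the ileum, Gata4, a transcription factor gene of the upper small intestine, had 30.4, 93.3, 24.4, 134 and 184 CPM in arsenic libraries 11 to 15, against 71.3, 63.0, 48.2 and 64.6 CPM in control libraries 1, 2, 3 and 5. Arsenic 15 was first of 9 for both genes, and arsenic 14, second for Gata4, ranked 5 of 9 for Slc46a1. Fabp1, a fatty acid binding protein of the upper small intestine, was likewise highest in arsenic 15, at 1579.7 CPM, and second in arsenic 12, at 1245 CPM. In the colon, Hoxb13 had 162, 40.1, 91.3 and 73.5 CPM in arsenic libraries 11, 12, 13 and 15, against 0, 68.6, 239, 221 and 45.8 CPM in control libraries 1 to 5. The 3 colon libraries with most Hoxb13 (control 3, control 4 and arsenic 11) were the 3 with most Slc46a1, and control 1, with no Hoxb13 count, had least. The place along each region from which a library was taken is not given, and its part in these differences was not tested.

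**Figure D3:**
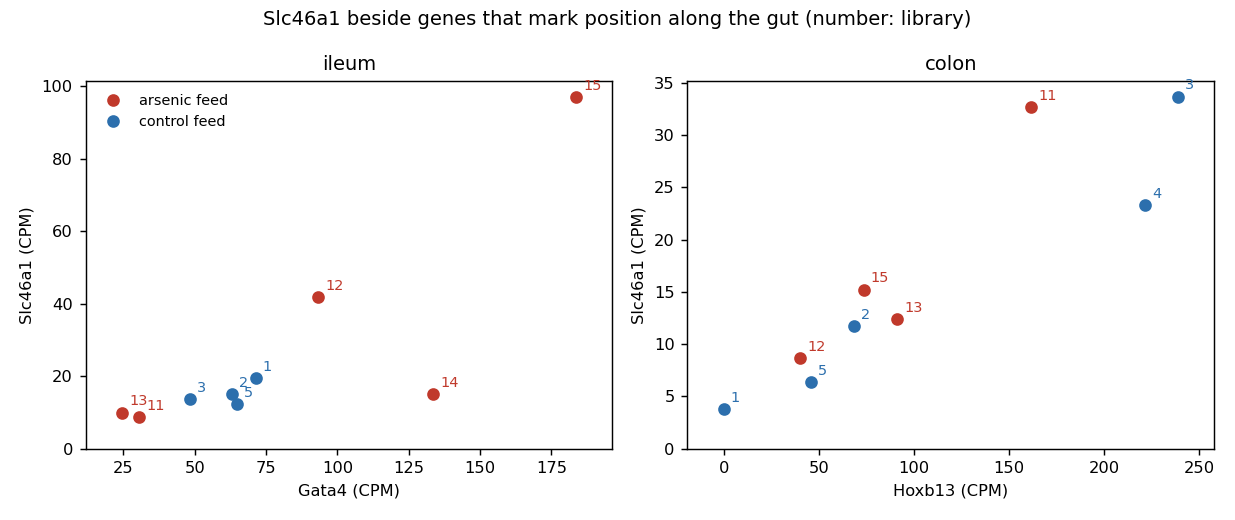
Slc46a1 (vertical axis, CPM) is set against Gata4 in the ileum and Hoxb13 in the colon (horizontal axis, CPM), 1 numbered point per library, arsenic in red and control in blue. Ileum arsenic 15 is highest in both genes, and colon control 1 is lowest in both.

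Tfrc, the transferrin receptor, had 147, 120.2, 132, 216 and 144 CPM in ileum arsenic libraries 11 to 15, against 126, 135, 187 and 179.8 CPM in ileum control libraries. In the cecum it had 114, 132, 156, 215 and 122 CPM on arsenic feed, against 129.7, 142, 134 and 160.2 CPM on control feed. Library 14 was the highest arsenic library in both regions, and the groups overlapped in both. In the colon the levels were 101 to 129 CPM on arsenic feed and 90.6 to 150.1 CPM on control feed. The log2 fold changes were -0.09 ± 0.19, 0.10 ± 0.18 and -0.01 ± 0.14 in ileum, cecum and colon (adjusted p = 0.819, 0.738 and 0.986).

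Slc40a1, the exporter, had 20.4, 13.2, 35.8, 5.80 and 4.76 CPM in ileum arsenic libraries 11 to 15, against 5.99, 18.9, 23.3 and 12.98 CPM in ileum control libraries 1, 2, 3 and 5. Its lowest ileum libraries were arsenic 15, arsenic 14 and control 1, which were also the lowest 3 of 9 in Fabp6. In the cecum it had 40.7 to 52.8 CPM on arsenic feed and 43.4 to 61.8 CPM on control feed. In the colon it had 285, 308, 208 and 318 CPM on arsenic feed, against 244, 232, 289, 248 and 185 CPM on control feed. The log2 fold changes were 0.04 ± 0.61, -0.12 ± 0.11 and 0.23 ± 0.15 (adjusted p = 0.980, 0.463 and 0.554), so none exceeded the spread between libraries. Without ileum arsenic 14 and 15 the ileum value was 0.60 (adjusted p = 0.501).

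Heph, the oxidase that partners the exporter, had 214, 277, 235, 214 and 411 CPM in ileum arsenic libraries 11 to 15, against 337, 348, 379.6 and 345 CPM in ileum control libraries. Of the arsenic libraries 4 lay below every control library and arsenic 15 lay above them all. The log2 fold change was -0.43 ± 0.18 (adjusted p = 0.177). Without arsenic 15 it was -0.59 (adjusted p = 0.0134), and without arsenic 14 and 15 it was -0.55 (adjusted p = 0.0417). In the cecum Heph had 308 to 356 CPM on arsenic feed and 325 to 376 CPM on control feed (log2 fold change -0.10 ± 0.06, adjusted p = 0.261). In the colon it had 213 to 244 CPM on arsenic feed and 176 to 271 CPM on control feed (log2 fold change -0.08 ± 0.13, adjusted p = 0.853). Averaged over the 3 regions, Heph had the smallest unadjusted p of the 8 members, 0.0223, at a log2 fold change of -0.20 ± 0.08 (adjusted p = 0.0891). No member was called in that average, where 19.7% of 17763 genes were. It passed the test without ileum arsenic 15 (-0.27, adjusted p = 0.0018), without ileum arsenic 14 and 15 (-0.25, adjusted p = 0.00404) and without colon control 1 (-0.23, adjusted p = 0.0294).

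Fth1, the ferritin heavy chain, had 1169.6, 1693, 1284, 1619.8 and 1873 CPM in ileum arsenic libraries 11 to 15, against 1188, 1078, 1173 and 1188 CPM in ileum control libraries. Of the arsenic libraries 4 lay above every control library. The log2 fold change was 0.36 ± 0.16 (adjusted p = 0.179). Arsenic 15, 12 and 14 ranked 1, 2 and 3 of 9 ileum libraries for Fth1 and for Fabp1. For Gata4 they ranked 1, 3 and 2. Arsenic 13 ranked 4 for Fth1 and 9 for both position genes. The part of position along the ileum in the Fth1 values was not tested. Ftl1, the light chain, had 46.6, 58.2, 50.5, 43.6 and 58.6 CPM in ileum arsenic libraries, against 44.8, 39.1, 42.3 and 38.6 CPM in ileum control libraries (log2 fold change 0.28 ± 0.10, adjusted p = 0.124). Again 4 arsenic libraries lay above every control library, and arsenic 14 did not. Without arsenic 14 and 15 the values were 0.25 for Fth1 (adjusted p = 0.346) and 0.32 for Ftl1 (adjusted p = 0.104).

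In the cecum Fth1 had 3682, 3376, 3183, 3377 and 3412 CPM on arsenic feed, against 3873, 3448, 4194 and 3832 CPM on control feed (log2 fold change -0.13 ± 0.07, adjusted p = 0.169). Ftl1 had 74.4, 73.0, 58.5, 76.2 and 69.8 CPM on arsenic feed, against 101, 76.0, 98.7 and 66.3 CPM on control feed (log2 fold change -0.24 ± 0.12, adjusted p = 0.167). Ftl1 passed the test without cecum control 5 (-0.34, adjusted p = 0.0322). In the colon Fth1 had 1564 to 2552 CPM on arsenic feed and 1259 to 3261 CPM on control feed (log2 fold change 0.03 ± 0.27, adjusted p = 0.974). Colon Ftl1 had 46.6 to 81.9 CPM on arsenic feed and 43.7 to 135 CPM on control feed (log2 fold change -0.18 ± 0.35, adjusted p = 0.882). Colon control 1, the library with no Hoxb13 count, was the highest colon library for both chains, and without it the colon values were 0.30 for Fth1 (adjusted p = 0.445) and 0.21 for Ftl1 (adjusted p = 0.617). Colon control 1 also ranked 1 of 9 for Car1, a large intestine marker, and colon arsenic 12 ranked 2 for both Car1 and Fth1. Colon control 3 and 4 ranked 8 and 9 for both genes. The part of position along the colon in these values was not tested.

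Both ferritin genes have near-identical copies elsewhere in the genome, so the split of reads between them is uncertain. The copies listed under their own names held few counts, at most 20 a library for Ftl1-ps1. Those counts do not show how many reads that fit several copies were left uncounted. The levels of Fth1 and Ftl1 and the ratio between them are therefore uncertain. The number of Fth1 counts per Ftl1 count had geometric means of 29.4 on arsenic feed and 28.1 on control feed for ileum, 48.5 and 45.5 for cecum, and 32.5 and 29.1 for colon. The log2 differences of arsenic minus control were 0.07, 0.09 and 0.16, with 2-sided exact permutation p of 0.627, 0.460 and 0.175 over 126 splits each (0.627, 0.627 and 0.524 after Benjamini-Hochberg adjustment over the 3 regions). The smallest p these group sizes allow is 0.00794. Without ileum arsenic 14 and 15 the ileum difference was -0.09.

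**Figure D4:**
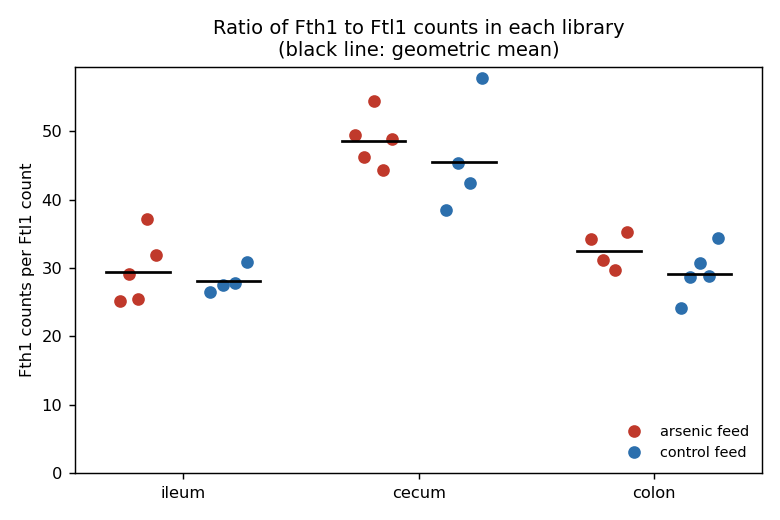
The vertical axis is the number of Fth1 counts per Ftl1 count, from 0, with 1 point per library and a black line at the geometric mean; arsenic libraries (red) stand left of control libraries (blue). In each region the arsenic and control libraries overlap, and cecum libraries run from 38.5 to 57.8.

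The second question was how the genes differ between gut regions, tested within each feed. Cecum and ileum differed in 6 of 8 members on arsenic feed (3 higher and 3 lower in cecum) and in 6 of 8 on control feed (3 higher and 3 lower), where 52.2% of 17022 and 54.9% of 16882 genes tested were called. Colon and cecum differed in 4 of 8 on arsenic feed (3 higher and 1 lower in colon) and in 4 of 8 on control feed (2 higher and 2 lower), against 38.6% and 47.2% of genes. Colon and ileum differed in 4 of 8 on arsenic feed (2 higher and 2 lower in colon) and in 7 of 8 on control feed (3 higher and 4 lower), against 59.1% and 52.2% of genes. With so large a share of all genes called, these counts are a description and set the members apart from no other genes. The 3 comparisons on a feed share libraries and are not independent of each other.

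**Figure D5:**
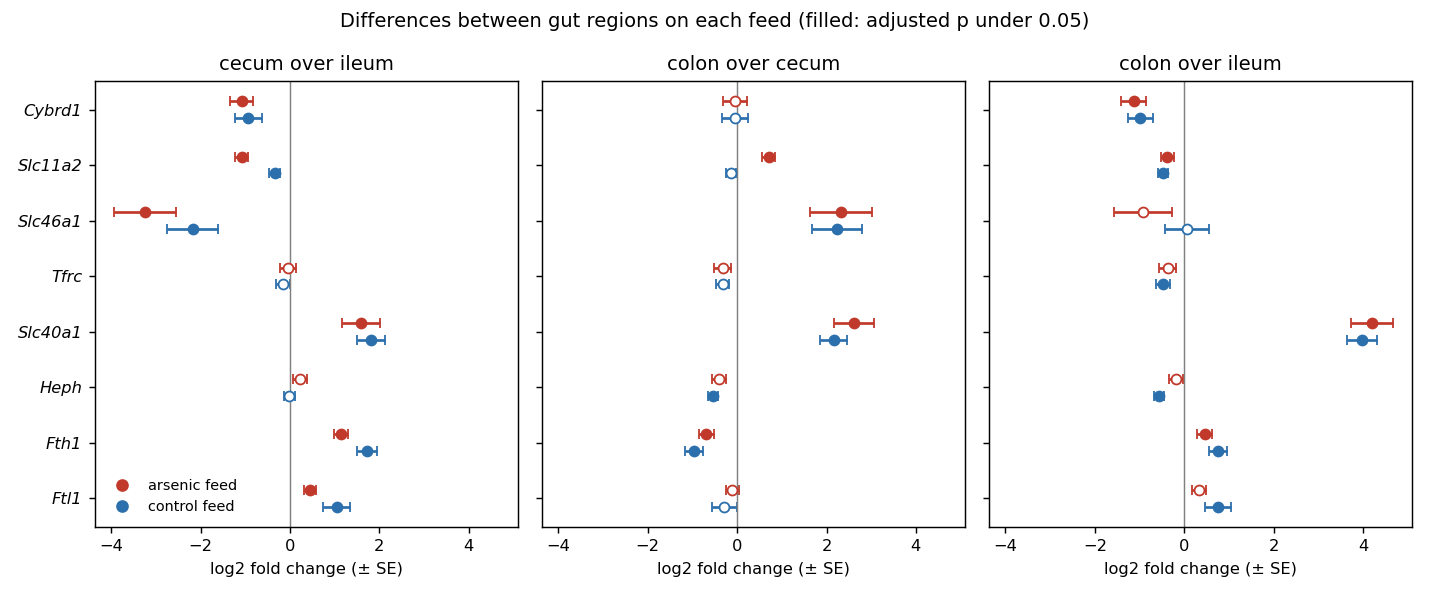
Points give the log2 fold change of the first named region over the second for each gene, on arsenic feed (red, upper) and control feed (blue, lower), and bars give standard errors; filled points have an adjusted p under 0.05. Slc40a1 in colon over ileum has the largest values shown, 4.20 on arsenic feed and 3.97 on control feed.

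Slc40a1 climbed along the gut on both feeds. It averaged 279.5 ± 49.7 CPM in colon (n = 4) and 16.0 ± 12.7 CPM in ileum (n = 5) on arsenic feed (SD), a log2 fold change of 4.20 ± 0.47 (adjusted p = 7.54e-06), or 18.4-fold. On control feed it averaged 239.6 ± 37.4 CPM in colon (n = 5) and 15.3 ± 7.496 CPM in ileum (n = 4), a log2 fold change of 3.97 ± 0.33 (adjusted p = 8.49e-07), or 15.68-fold. The cecum lay between them. Cecum over ileum was 1.58 ± 0.43 on arsenic feed (adjusted p = 0.00699) and 1.81 ± 0.31 on control feed (adjusted p = 0.000337). Colon over cecum was 2.62 ± 0.44 on arsenic feed (adjusted p = 0.000474) and 2.16 ± 0.30 on control feed (adjusted p = 0.000114). In each of these 6 comparisons no library of 1 region overlapped the other. Without ileum arsenic 14 and 15 the arsenic values were 3.67 in colon over ileum (adjusted p = 1.14e-06) and 1.05 in cecum over ileum (adjusted p = 0.00477). Heph did not share this order: it was lower in colon than in cecum on control feed (-0.54 ± 0.11, adjusted p = 0.00149) and lower in colon than in ileum on control feed (-0.56 ± 0.11, adjusted p = 0.000963), and was not called between regions on arsenic feed, where colon over cecum was nearest (-0.41, adjusted p = 0.0577, with no overlap of libraries). Without ileum arsenic 14 and 15, Heph was called on arsenic feed in colon over cecum (-0.41, adjusted p = 0.00129) and in cecum over ileum (0.39, adjusted p = 0.00312), the last at 0.23 (adjusted p = 0.224) with all libraries. Without arsenic 15 alone these values were -0.54 (adjusted p = 0.00023) and 0.47 (adjusted p = 0.000475). Macrophages, which recycle iron, also make ferroportin: the sum of 11 macrophage markers was 197 to 299 CPM in colon and 201 to 426 CPM in ileum on arsenic feed, and 205 to 422 CPM in colon and 252 to 330 CPM in ileum on control feed. These sums overlapped between regions on both feeds. Of 10 macrophage markers tested, 3 were lower in colon on arsenic feed and 2 on control feed, and 0 were higher. Markers of other cell types differed between colon and ileum. All 6 enteric nervous system markers were higher in colon on both feeds (list sums of 41.9 to 54.7 CPM in colon and 18.9 to 23.0 CPM in ileum on arsenic feed, and 38.8 to 61.6 CPM in colon and 15.4 to 24.6 CPM in ileum on control feed). Smooth muscle markers were higher in 6 of 6 on arsenic feed (5768 to 8736 CPM in colon and 3132 to 3460 CPM in ileum) and in 3 of 6 on control feed (4739 to 6945 CPM in colon and 3074 to 5895 CPM in ileum). Fibroblast markers were higher in 4 of 5 on arsenic feed and 3 of 5 on control feed, endothelial markers in 2 of 4 and 4 of 4, and all 7 proliferating cell markers were lower in colon on both feeds. Lymphocyte markers were lower in colon in 6 of 8 on arsenic feed and 4 of 8 on control feed. Goblet cell marker sums were 13389 to 29020 CPM in colon and 8540 to 15385 CPM in ileum on arsenic feed. On control feed they were 15819 to 40119 CPM in colon and 11622.5 to 14179 CPM in ileum. The part of these cell types in the Slc40a1 difference was not tested.

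Fth1 was highest in the cecum. It averaged 3406 ± 179 CPM in cecum and 1528 ± 293 CPM in ileum on arsenic feed (SD, n = 5 each), a log2 fold change of 1.15 ± 0.16 (adjusted p = 2.58e-05). On control feed it averaged 3837 ± 306 CPM in cecum and 1157 ± 53.0 CPM in ileum (SD, n = 4 each), a log2 fold change of 1.72 ± 0.23 (adjusted p = 1.99e-05). Colon over cecum was -0.69 ± 0.17 on arsenic feed (adjusted p = 0.00506) and -0.96 ± 0.21 on control feed (adjusted p = 0.00185). Colon over ileum was 0.46 ± 0.17 on arsenic feed (adjusted p = 0.0273) and 0.76 ± 0.21 on control feed (adjusted p = 0.00807), the control value 0.48 (adjusted p = 0.00428) without colon control 1. The colon over ileum call on arsenic feed was lost in 7 refits that left out 1 library each (ileum 11 or 13, cecum 11, 13 or 15, colon 12 or 15), at 0.32 to 0.40 and adjusted p up to 0.118.

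Ftl1 was higher in cecum than in ileum on arsenic feed (0.44 ± 0.14, adjusted p = 0.0150) and on control feed (1.04 ± 0.31, adjusted p = 0.0123). It was higher in colon than in ileum on control feed (0.76 ± 0.29, adjusted p = 0.0462), and that value was 0.36 (adjusted p = 0.0635) without colon control 1. Ftl1 in colon over cecum on control feed was -0.28 ± 0.29 (adjusted p = 0.444), and -0.65 (adjusted p = 0.0032) without colon control 1. The colon over ileum call was also lost without any 1 of colon control 2, ileum control 1, 2, 3 or 5, or cecum control 1, 2, 4 or 5, at 0.71 to 0.80.

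Slc46a1 was lowest in the cecum. Cecum over ileum was -3.24 ± 0.69 on arsenic feed (adjusted p = 0.00151) and -2.18 ± 0.57 on control feed (adjusted p = 0.00667), and no cecum library reached the lowest ileum library. The arsenic value was -2.33 without ileum arsenic 15 (adjusted p = 0.00209) and -2.47 without ileum arsenic 14 and 15 (adjusted p = 0.00361). Colon over cecum was 2.32 ± 0.70 on arsenic feed (adjusted p = 0.0190) and 2.23 ± 0.56 on control feed (adjusted p = 0.0062). The arsenic value was 1.80 (adjusted p = 0.0770) without colon arsenic 11, the arsenic library with most Hoxb13.

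Slc11a2 was lower in cecum than in ileum, at -1.08 ± 0.15 on arsenic feed (adjusted p = 1.88e-05) and -0.34 ± 0.12 on control feed (adjusted p = 0.0238). The control call was lost without cecum control 2, 4 or 5 or ileum control 1, at -0.32 to -0.29 and adjusted p of 0.0598 to 0.0724. It was higher in colon than in cecum on arsenic feed (0.70 ± 0.15, adjusted p = 0.00207) and was not called between them on control feed, and the test of that difference is the colon minus cecum interaction above. It was lower in colon than in ileum on arsenic feed (-0.38 ± 0.15, adjusted p = 0.0458) and on control feed (-0.47 ± 0.11, adjusted p = 0.00262). The arsenic call was lost in 7 refits without 1 library each (ileum 12 or 14, cecum 12 or 14, colon 12, 13 or 15), at -0.40 to -0.29, and was -0.23 (adjusted p = 0.178) without ileum arsenic 14 and 15.

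Cybrd1 was highest in the ileum. Cecum over ileum was -1.08 ± 0.25 on arsenic feed (adjusted p = 0.00231) and -0.94 ± 0.30 on control feed (adjusted p = 0.0163). The control value was -0.78 (adjusted p = 0.0540) without cecum control 4. Colon over ileum was -1.13 ± 0.27 on arsenic feed (adjusted p = 0.00242) and -0.99 ± 0.28 on control feed (adjusted p = 0.00868). Tfrc had the smallest spread of group means of the 8 members, 0.19 on the log2(CPM + 1) scale, beside 1.72 for Slc40a1. It was lower in colon than in ileum on control feed (-0.48 ± 0.15, adjusted p = 0.0162) and was not called in the other 5 region comparisons. The control call was lost without ileum control 3 (-0.39, adjusted p = 0.0614) or 5 (-0.41, adjusted p = 0.0544).

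The other genes of iron handling came from lists chosen by function, 88 genes in 8 lists. The lists were chosen with earlier results of these data known, so the shares below are a description. Over all lists, 5 rose and 3 fell of 77 tested in the ileum (10.4%, against 7.3% of all genes), and 7 rose and 16 fell of 76 in the cecum (30.3%, against 25.2%). In the colon edgeR called 0 of 76, where 0.649% of all genes were called: 7 had an unadjusted p under 0.05, DESeq2 called 1, a heme synthesis gene that was higher, and without colon control 1 edgeR called 1 hypoxia-inducible target, also higher. Counts of called genes in single lists are read against these shares, which are no background for counts at an unadjusted p. Values are arsenic over control feed within a region, and for the genes named the calls that were lost in refits are given with them. Among iron sensors, 1 of 9 tested rose in the ileum and 1 of 9 fell in the cecum. Egln2, a prolyl hydroxylase that marks hypoxia-inducible factors for decay, averaged 98.4 ± 15.1 CPM in ileum arsenic and 69.4 ± 4.07 CPM in ileum control libraries (log2 fold change 0.46 ± 0.11, adjusted p = 0.0367). Hif1a, a subunit of those factors, averaged 118 ± 17.7 CPM in cecum arsenic and 165 ± 16.0 CPM in cecum control libraries (-0.45 ± 0.11, adjusted p = 0.0124). Epas1 (HIF-2α), known in mouse gut as the factor that drives Slc11a2, Cybrd1 and Slc40a1 in low iron, ran from 39.9 to 61.4 CPM in ileum, 109 to 146 CPM in cecum and 151 to 193 CPM in colon on arsenic feed. On control feed it ran from 37.3 to 55.2, 115 to 144 and 141 to 205 CPM in the same regions, and it was called in no diet comparison. The Egln2 call was lost in 6 refits of 15 (without any 1 control library, or without arsenic 12 or 13, adjusted p up to 0.127).

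Of 5 ferritin handling genes tested, 1 rose and 1 fell in the ileum, and 1 rose and 1 fell in the cecum. Ncoa4, the receptor that takes ferritin to the lysosome for iron release, averaged 50.6 ± 9.09 CPM in ileum arsenic and 69.5 ± 5.87 CPM in ileum control libraries (-0.50 ± 0.13, adjusted p = 0.0389). Pcbp1, a chaperone that loads iron into ferritin, averaged 234 ± 26.3 CPM in ileum arsenic and 172 ± 7.26 CPM in ileum control libraries (0.40 ± 0.11, adjusted p = 0.0482). For both genes the ileum arsenic and control libraries did not overlap. Ncoa4 lost its call without any 1 control library or arsenic 12, 13 or 14 and under RLE scaling, and Pcbp1 without any 1 control library, arsenic 12, 13 or 14, or arsenic 14 and 15, and with no filter (adjusted p up to 0.157 and 0.136). In the cecum Herc2, a ubiquitin ligase that acts on Ncoa4, rose by 0.35 ± 0.07 (adjusted p = 0.00177) and Trim16 fell by 0.21 ± 0.07 (adjusted p = 0.0422). Herc2 kept its call in all 14 refits, and Trim16 lost it in 7 (under upper-quartile scaling and without any 1 of control 1, 2 or 4 or arsenic 11, 12 or 13).

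Of 11 other iron carriers and reductases, 0 were called by edgeR in the ileum, where 3 had an unadjusted p under 0.05. In the ileum 1 was called higher by DESeq2, with no filter, without arsenic 15 and without arsenic 14 and 15. In the cecum 5 fell, but 1 under upper-quartile scaling or without arsenic 11, 2 without any 1 of arsenic 13 or 14 or control 1 or 2, and 3 without any 1 of arsenic 12 or 15 or control 4 or 5. Their median log2 fold change in the cecum was -0.20, beside 0.02 over all genes tested there. The reductase Steap2 averaged 9.85 ± 1.12 CPM in cecum arsenic and 14.6 ± 2.08 CPM in cecum control libraries (-0.53 ± 0.12, adjusted p = 0.00487). The metal importer Slc39a8 (-0.27 ± 0.09, adjusted p = 0.0341), the mitochondrial iron importer Slc25a28 (-0.36 ± 0.12, adjusted p = 0.0381) and the reductase Frrs1 (-0.27 ± 0.09, adjusted p = 0.0408) also fell. Steap2 kept its call in all 14 refits. The other 3 lost theirs under upper-quartile scaling and without any 1 of cecum control 1 or arsenic 11 or 14 (adjusted p up to 0.137). Slc39a8 lost it also without control 2 or 5 or arsenic 12, Slc25a28 without control 2 or arsenic 13 or 15, and Frrs1 without control 4 or arsenic 13. Steap1, the other of the 5, had an adjusted p of 0.0444 and lost its call in 8 of 14 refits; it is named here after its values were seen. Of 6 transferrin and hepcidin axis genes tested in the cecum, Cp (ceruloplasmin, a relative of Heph) rose, at 9.81 ± 1.22 CPM on arsenic feed and 7.73 ± 0.417 CPM on control feed (0.38 ± 0.13, adjusted p = 0.0369). That call was lost with no filter and without any 1 of control 1, 4 or 5 or arsenic 11, 12 or 13 (adjusted p up to 0.0987). The hormone gene Hamp (hepcidin) and the transferrin gene Trf stayed under 1 CPM in all 27 libraries.

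Heme genes moved in both directions. Of 8 heme synthesis genes 2 rose in the ileum: Alas1, the first and rate-limiting enzyme, averaged 167 ± 38.7 CPM on arsenic feed and 88.2 ± 14.9 CPM on control feed (0.88 ± 0.17, adjusted p = 0.0185), and Alad rose by 0.71 ± 0.14 (adjusted p = 0.0168). In the cecum Alad (-0.37 ± 0.10, adjusted p = 0.0125), Ppox (-0.30 ± 0.07, adjusted p = 0.00972) and Urod (-0.28 ± 0.08, adjusted p = 0.0234) fell, and Fech, which puts iron into heme, rose by 0.26 ± 0.07 (adjusted p = 0.0141). The 2 ileum calls were lost without control 2 or 3 (Alas1 also without control 1, adjusted p up to 0.0831). Ppox, Fech and cecum Alad kept their calls in all 14 refits, and Urod lost it under upper-quartile scaling and without control 1 or arsenic 12, 13 or 14. Of 10 heme handling genes tested, Flvcr2 fell in the ileum (-1.01 ± 0.25, adjusted p = 0.0360), a call lost without any 1 of control 1, 2 or 3 or arsenic 11, 12 or 14, and without arsenic 14 and 15. In the cecum the biliverdin reductase Blvrb fell (-0.28 ± 0.07, adjusted p = 0.00609) and Blvra rose (0.31 ± 0.09, adjusted p = 0.0250), the Blvra call lost without any 1 of control 1, 2 or 4 or arsenic 11. Of 17 iron-sulfur cluster genes tested, 0 were called by edgeR in the ileum (4 had an unadjusted p under 0.05, DESeq2 called 2 and edgeR without arsenic 12 called 1, all higher), and Ciao2b fell in the cecum (-0.33 ± 0.11, adjusted p = 0.0404), a call lost under upper-quartile scaling and in 6 of 9 refits without 1 library (control 1, 4 or 5, arsenic 11, 12 or 14).

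Of 10 hypoxia-inducible targets, 1 rose and 1 fell in the ileum, and 3 rose and 4 fell in the cecum. Vegfa averaged 83.6 ± 29.1 CPM in ileum arsenic and 166 ± 13.8 CPM in ileum control libraries (-1.04 ± 0.20, adjusted p = 0.0167), while Ndrg1 rose in the ileum by 1.11 ± 0.19 (adjusted p = 0.0112). In the cecum Adm averaged 4.06 ± 0.937 CPM on arsenic feed and 17.7 ± 4.33 CPM on control feed (-2.09 ± 0.19, adjusted p = 1.74e-05). Vegfa (-0.70 ± 0.10, adjusted p = 0.000547) and Car9 (-0.25 ± 0.07, adjusted p = 0.0148) fell there too, and Pdk1 rose (0.35 ± 0.07, adjusted p = 0.00208). Adm, cecum Vegfa, Pdk1 and ileum Ndrg1 kept their calls in all refits, ileum Vegfa lost it without any 1 of control 1, 2 or 3, and Car9 without control 5 (adjusted p = 0.0538). The other 3 cecum calls were lost in some of 14 refits, Slc2a1 in 7, Ankrd37 in 6 and Ndrg1 in 4, and they are named after their values were seen. Without cecum arsenic 13, or without cecum control 1, 1 target rose and 3 fell in the cecum, and without cecum control 5, 2 rose and 2 fell. Averaged over the regions, 5 genes of all lists rose and 5 fell of 78 tested (12.8%, against 19.7% of all genes). The smallest adjusted p were those of Adm (-1.05 ± 0.15, adjusted p = 1.92e-05) and Vegfa (-0.61 ± 0.09, adjusted p = 3.17e-05). Calls also included Ncoa4 (-0.31 ± 0.07, adjusted p = 0.0023) and Fech (0.27 ± 0.05, adjusted p = 0.000259). None of the called genes of these lists changed direction in any refit of a region.

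Promoter windows of 300 bases (250 before to 50 after the start) were given for 5 members by RefSeq (GRCm38.p6), Cybrd1, Slc46a1, Tfrc, Fth1 and Ftl1. The hypoxia response core, ACGTG or GCGTG on either strand, was found in 43.8% of all 32851 windows. It was in 1 of 1 window each for Cybrd1, Slc46a1 and Ftl1, in 2 of 2 for Tfrc and in 1 of 2 for Fth1. The antioxidant response core, TGAC and GC with any 3 bases between, on either strand, was found in 0 windows of these members and in 12.4% of all windows.

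The genes whose 6 group means ran most like those of a member were listed by the root mean square difference of centred log2(CPM + 1), out of 9286 genes of at least 10 CPM. For Ftl1 they were Atp6v0d1 (0.014) and Tjp3 (0.034), for Tfrc Sf3b6 (0.019) and Mrpl32 (0.023), and for Cybrd1 Phgdh (0.041) and Socs2 (0.048). For Heph they were Vcpip1 (0.068) and Med13 (0.069), for Fth1 Nf2 (0.073) and Gstm1 (0.076), and for Slc11a2 Efhd2 (0.074) and Cyp4f16 (0.088). The members with the widest spread had more distant matches, Cldn8 (0.177) and Tnip3 (0.239) for Slc40a1 and Slc6a8 (0.211) and Edn2 (0.226) for Slc46a1.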

How the data were processed

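The deposited values are raw read counts for each Ensembl gene and library (poly-A RNA, 150 bp paired ends, per the labels' protocols). HISAT2 2.1.0, SAMtools, HTSeq 0.6.0 and DESeq2 1.6.3 are listed in the submitters' processing notes. The genome build, annotation release and strand handling are not stated, and counts of genes that overlap others (Ftl1, Slc11a2 and Heph among the members) are uncertain. Symbols were joined by identifier for 52403 genes, and 147 had no match. Using R 4.3.3, edgeR 4.0.16 filtered genes (filterByExpr, minimum count 10, total 15), scaled libraries by TMM and ran robust quasi-likelihood tests, adjusted over all genes: diets within a region, regions within a feed, and interactions and the average over all 27 libraries. The code was checked on simulated data. Alternatives used DESeq2 1.42.0, limma 3.58.1 with statmod 1.5.0 (replicate block), other scalings and filters, and libraries left out. Genes are named by a rule: all members, at most the 4 smallest adjusted p per list and region, and the 2 most like genes per member. Members and lists were chosen with earlier results of these data known. IRE sequences are from GENCODE M21 (GRCm38). Figures used matplotlib. One marker gene's result is not reported here.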

Additional observations from a re-analysis of the deposited data

Results flagged for a closer look

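In 5 of 48 groups (8 genes in 6 groups of libraries) 1 library lay far from the others by Dixon's criterion, which chance meets in about 1 in 20 groups. Slc11a2 was far higher in arsenic 15 than in the other arsenic libraries both in the ileum (76.7 CPM, against 49.0 to 53.1) and in the cecum (32.9 CPM, against 23.6 to 26.2). Heph was far higher in cecum arsenic 15 (356 CPM, against 308 to 313 in the other cecum arsenic libraries). Tfrc was far higher in ileum arsenic 14 (215.5 CPM, against 120.2 to 147 in the other ileum arsenic libraries), and it was also highest in cecum arsenic 14, at 215 CPM. Fth1 was far lower in ileum control 2 (1078 CPM, against 1173 to 1188 in the other ileum control libraries).

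The arsenic effect on Slc11a2 differed between cecum and ileum by -0.74 on the log2 scale (edgeR interaction test, adjusted p = 0.0154): all 5 cecum arsenic libraries lay below all 4 cecum control libraries, and the ileum groups overlapped.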

How the results depend on the processing

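Of 104 log2 fold changes of members, 33 passed the test and 71 did not. For the 33, 629 of 666 refits kept both direction and call, 37 lost the call and 0 changed direction. For 27 of the 71, among them every diet comparison within a region, 446 of 489 refits kept both, 6 gained a call and 37 changed sign. The Slc11a2 value in the cecum stayed called in every refit, at -0.60 to -0.45 (adjusted p = 7.15e-07 to 0.0106), and its cecum minus ileum difference at -0.82 to -0.57 (adjusted p up to 0.0478).

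Leaving out 1 library in turn gave these ranges of log2 fold change for arsenic over control: Cybrd1 -0.11 to 0.27 in ileum, -0.13 to 0.20 in cecum (-0.019 with all 27 libraries in 1 fit) and -0.27 to 0.068 in colon, Slc46a1 -0.38 to 0.61 in colon, and Tfrc -0.25 to 0.038 in ileum, -0.069 to 0.18 in cecum and -0.092 to 0.10 in colon (0.0078 under upper-quartile scaling). Likewise Slc40a1 ran from -0.49 to 0.34 in ileum, Fth1 from -0.11 to 0.30 and Ftl1 from -0.35 to 0.21 in colon, and the Slc11a2 colon minus ileum difference from -0.12 to 0.15. The ileum log2 ratio of Fth1 to Ftl1 ran from -0.019 to 0.12, and was -0.087 without arsenic 14 and 15, a pair chosen after the data were seen. Members called ran from 0 to 1 in the ileum and in the average (1 in each without ileum arsenic 14 and 15), 1 to 2 in the cecum, and 2 to 5 in colon over ileum on arsenic feed.

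Counts over all genes moved more, and the cause was not tested. Arsenic over control called 1190 genes in the ileum, against 2141 by DESeq2, 2889 with all 27 libraries, 673 without ileum arsenic 14 and 15 and 121 to 1583 with 1 library left out. In the cecum 3933 became 2021 with all 27 libraries. In the colon 107 became 665 by DESeq2, 493 with all 27 libraries and 6 to 351 with 1 left out. The cecum minus ileum difference called 1147 to 2642 genes with 1 left out. The colon minus cecum difference called 30 by DESeq2, 1 with the replicate block, 9 without ileum arsenic 14 and 15 and 0 to 2 with 1 left out. The colon minus ileum difference called 698 by DESeq2, 252 under RLE scaling, 113 with no filter, 124 without ileum arsenic 14 and 15 and 18 to 965 with 1 left out. Upper-quartile scaling turned the cecum split from 1768 higher and 2165 lower into 2448 and 1627, and the cecum minus ileum split from 511 and 1508 into 1069 and 748. It moved the median of all genes from -0.03 to -0.19 in cecum over ileum on control feed, from -0.05 to 0.09 in colon over cecum on control feed and from -0.01 to 0.15 in the cecum minus ileum difference.

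Numbers in the labels were not treated as pairs, since no label ties a number to a mouse. Of 24 same-numbered pairs of libraries, 13 had correlated deviations over 0.1 (median 0.120, range -0.108 to 0.248). Among pairs with different numbers, 9 of 97 did (median -0.028, range -0.256 to 0.205). In 29 of 48 matches of a library with another region the best match had its own number. Same-numbered pairs thus correlated more often than others. The main tests between regions, the interactions and the average take no account of it. Of 80 member values refitted with the replicate block 3 changed their call: Slc46a1 in colon over cecum on arsenic feed lost it (2.19, adjusted p = 0.0610), while Heph in colon over cecum on arsenic feed (-0.45, adjusted p = 0.0364) and Tfrc in colon over cecum on control feed (-0.43, adjusted p = 0.00163) gained it. Fth1 in colon over ileum on arsenic feed lost its call under RLE scaling (0.40, adjusted p = 0.0541), and Ftl1 in colon over ileum on control feed with no filter (adjusted p = 0.122) and under upper-quartile scaling (adjusted p = 0.0511). At 25 to 188 counts a library, Cybrd1 is the member whose precision depth limits most.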
